A study of Rattus norvegicus with 10 samples.

Results

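The 7 genes described here encode proteins that hold the sides of a synapse together: the neurexins Nrxn2 and Nrxn3, the neuroligins Nlgn1 and Nlgn3, and the leucine-rich repeat transmembrane proteins Lrrtm1, Lrrtm2 and Lrrtm3. They were chosen by symbol from a table of 16041 rat genes, with 6 matching in letter case and Lrrtm1 listed as LRRTM1, and all 7 passed the filter on low values. The table holds RNA-seq levels in the prefrontal cortex of male Sprague-Dawley rats at postnatal day 91. Of these rats 5 were controls and 5 had gone through early life stress (ELS), a limited nesting paradigm from postnatal day 2 to postnatal day 9. Each library came from its own tissue sample. The labels do not give litters, so the p-values measure only the spread between these samples.

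Neurexins sit in the presynaptic membrane and are made as long alpha and short beta forms from separate promoters, with many splice forms. Across the cleft they bind neuroligins, LRRTMs, cerebellins and latrophilins, and inside the cell they bind PDZ-domain adaptors of the release site. Neuroligins and LRRTMs sit in the postsynaptic membrane and bind scaffolds such as PSD-95, and in cortex the partners chosen by a synapse bear on whether it is excitatory or inhibitory. The table gives 1 value per gene, so forms of a neurexin made by promoter choice or splicing are summed.

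Values are in RPKM, which divides reads by gene length and by the size of the library, and so allows genes to be set against each other. Library totals ran from 18838898 to 22311136 reads, and each of the 7 genes had between 438 and 7700 reads per library. Differences are the ELS mean minus the control mean in log2 units, computed on log2(RPKM + 0.1), and carry a standard error (SE). They come from limma fitted over 14642 genes, with Benjamini-Hochberg adjusted p-values and a threshold of 0.05. That test called 0.0% of the genes (0 of 14642). At an unadjusted p under 0.05 it marked 20.4% of the tested genes (2988), 10.1% being higher and 10.3% lower in ELS.

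Control replicate 4 stood apart from the other controls. It lay outside their range for 61.7% of tested genes, against 29.6% to 38.8% for the other control libraries taken in the same way. Its summed myelin markers were 2367 RPKM against 1157 to 1478 in the other controls. Its interneuron markers summed to 207.1 RPKM against 312.4 to 386.2, and the choroid plexus and ependyma markers in the table, Ttr and Ccdc153, to 34.2 against 1.02 to 3.05. Excitatory neuron markers summed to 1521 RPKM there against 1157 to 1262, though their median log2 ratio to the other controls was -0.57. The differences of the 7 genes that change direction, or move by more than 1.5 times, without control replicate 4 or ELS replicate 2 are given also without that library. Among the cortical markers the glutamate transporter gene Slc17a7 stood at 369.2 ± 32.1 RPKM in the control group and 399.9 ± 15.6 RPKM in the ELS group (SD, n = 5), and none of the marker genes in the table was at 0 in all libraries.

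None of the 7 genes passed the threshold. Their adjusted p-values ran from 0.183 to 0.894 (limma), and in all 7 the ranges of the groups overlapped, whereas 5.68% of tested genes had groups that did not overlap (3.08% higher and 2.6% lower in ELS). At an unadjusted p under 0.05, 3 of the 7 were higher in ELS (Nlgn1, Nlgn3 and Lrrtm3) and 0 lower, beside the background of 10.1% and 10.3%. The median log2 fold change of the 7 was 0.15, and that of all tested genes was 0.0037. Without control replicate 4, 3 of the 7 were again higher at that p, against 11.1% of tested genes, and the median was 0.14. The 3 became 2 without ELS replicate 1 or with the replicate number as a block. They became 1 without control replicate 2 or 3 or ELS replicate 3 or 5, and 0 without ELS replicate 4. Without control replicate 4 and ELS replicate 2 together, 4 were higher at that p, LRRTM1 being added, against 13.9% of tested genes.

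**Figure D1:**
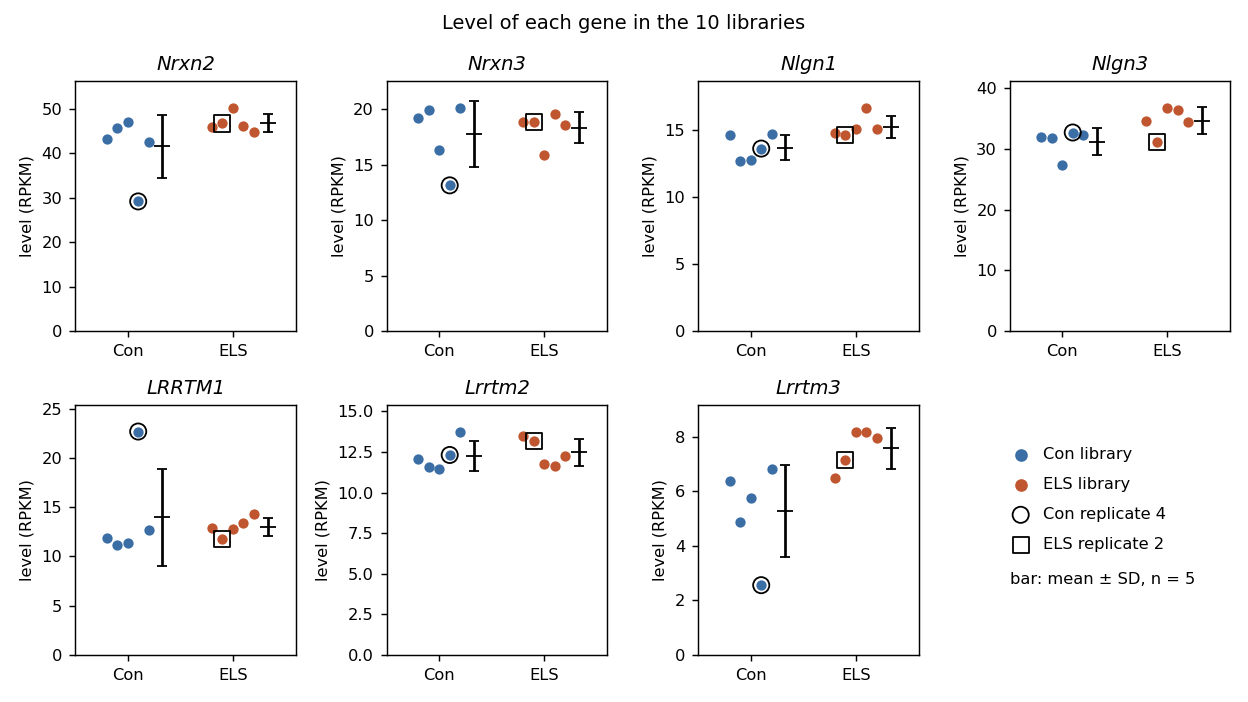
Level (RPKM, linear axis from 0) of each gene in the 5 control (Con, blue) and 5 ELS (red) libraries, with the mean ± SD as a black bar. Control replicate 4 (circle) holds the lowest Nrxn2, Nrxn3 and Lrrtm3 and the highest LRRTM1 value, and for Nlgn1, Nlgn3 and Lrrtm3 4 of 5 ELS libraries lie above every control.

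The order of the levels was nearly the same in every animal. Nrxn2, Nlgn3, Nrxn3 and Nlgn1 were the 4 highest, in that order, in 9 of 10 libraries, the exception being control replicate 4, and Lrrtm3 was the lowest in 10 of 10. Nrxn3 and Nlgn1 were close, with ELS ranges of 15.9 to 19.5 and 14.6 to 16.6 RPKM that overlapped. LRRTM1 and Lrrtm2 could not be ordered: LRRTM1 was the higher in 4 of 10 libraries, 3 of them ELS and 1 control.

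Nrxn2 (ENSRNOG00000021103) encodes a neurexin of the presynaptic terminal, and its gene model in the table is 7620 bases long. Its level in control replicates 1 to 5 was 43.3, 45.8, 47.0, 29.2 and 42.5 RPKM. In ELS replicates 1 to 5 it was 45.9, 46.7, 50.3, 46.3 and 44.9 RPKM. Control replicate 4 was far below all other libraries, and 1 ELS library lay above the highest control. The means were 41.6 ± 7.15 and 46.8 ± 2.05 RPKM (SD, n = 5). The difference of the mean log2 values was 0.19 ± 0.12 (SE, with adjusted p = 0.373 by limma). Without control replicate 4 it was 0.07 ± 0.05 (adjusted p = 0.408), so most of the difference between the means rested on that library.

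Nrxn3 (ENSRNOG00000047574), the other neurexin of the group, with a gene model of 7021 bases, was at 19.2, 19.9, 16.3, 13.1 and 20.1 RPKM in control replicates 1 to 5. The ELS replicates 1 to 5 stood at 18.9, 18.8, 15.9, 19.5 and 18.6 RPKM. The low libraries were control replicate 4, then ELS replicate 3 and control replicate 3, so low values occurred in each group. The log2 difference was 0.06 ± 0.12 (SE; adjusted p = 0.789 by limma) and turned to -0.04 ± 0.08 once control replicate 4 was left out (adjusted p = 0.789). The ratio of Nrxn2 to Nrxn3 was 2.11 to 2.88 in controls and 2.37 to 3.16 in ELS, and in control replicate 4, where both genes were low, it was 2.22. The drop in that library was thus of like size in the neurexins: its level was 0.654 times the mean of the other controls for Nrxn2 and 0.695 times for Nrxn3.

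The neuroligins differed little between animals and had slightly higher means in ELS. Nlgn1 (ENSRNOG00000032576), best known from excitatory synapses, was at 14.6, 12.7, 12.8, 13.6 and 14.7 RPKM in control replicates 1 to 5. In ELS replicates 1 to 5 it was at 14.7, 14.6, 15.04, 16.6 and 15.1 RPKM. In ELS, 4 of 5 libraries lay above the highest control, and the groups met at control replicate 5 and ELS replicate 2. The means were 13.7 ± 0.950 and 15.2 ± 0.812 RPKM (SD, n = 5), which differ by 0.16 ± 0.06 log2 units (SE; adjusted p = 0.183 by limma).

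Nlgn3 (ENSRNOG00000003812), a neuroligin found at excitatory and inhibitory synapses, was at 32.0, 31.8, 27.3, 32.7 and 32.3 RPKM in control replicates 1 to 5. The ELS replicates 1 to 5 stood at 34.6, 31.2, 36.8, 36.5 and 34.4 RPKM. Again 4 of 5 ELS libraries were above every control, ELS replicate 2 being the exception, and control replicate 3 was the lowest of all. The means were 31.2 ± 2.21 and 34.7 ± 2.23 RPKM (SD, n = 5), which differ by 0.15 ± 0.06 log2 units (SE; adjusted p = 0.213 by limma). Without ELS replicate 2 it was 0.19 ± 0.06 (adjusted p = 0.105).

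Nlgn1 and Nlgn3 followed each other closely. The ratio of Nlgn3 to Nlgn1 was 2.29 ± 0.159 in controls and 2.28 ± 0.125 in ELS (SD, n = 5). Of the 21 pairs among the 7 genes they had the smallest root mean square difference of centred log2 values over the 10 libraries, 0.08, with Nrxn2 and Nrxn3 at 0.17 and LRRTM1 and Lrrtm3 the farthest apart at 0.69. Among cell markers, 9 of 10 pan-neuronal genes had a log2 fold change above 0, with a median of 0.17. At an unadjusted p under 0.05, 4 of them were higher and 1 lower, beside 10.1% and 10.3% of all tested genes. Their summed level was 1902 to 2194 RPKM in controls, with control replicate 4 the lowest, and 2237 to 2492 in ELS. Nlgn3 in contrast had its highest control value in that library, and Nlgn1 was at 0.994 times the mean of the other controls there. The summed excitatory neuron markers were also highest among controls in that library, with Camk2a at 963.7 RPKM and Slc17a7 at 426.6 RPKM. The median log2 ratio of the excitatory list to the other controls was -0.57 there. Between the groups, 8 of 10 excitatory markers had a log2 fold change above 0 (median 0.30, 1 higher and 1 lower at that p). So did 8 of 9 interneuron markers (median 0.18, 1 higher and 1 lower). Glial and blood markers were below 0 throughout: all 10 myelin and oligodendrocyte markers (median -0.52, 10 lower at that p), all 10 astrocyte markers (-0.20, 7 lower), all 7 of oligodendrocyte precursors (-0.30, 5 lower), all 8 of microglia (-0.25, 5 lower) and all 4 of blood (-1.07, 4 lower). Of all tested genes 10.3% were lower at that p. The myelin markers summed to 1157 to 2367 RPKM in controls and 869 to 1136 in ELS. The part of these markers in the neuroligin values was not tested. In bulk tissue, more cells of a type and more RNA per cell cannot be told apart.

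**Figure D2:**
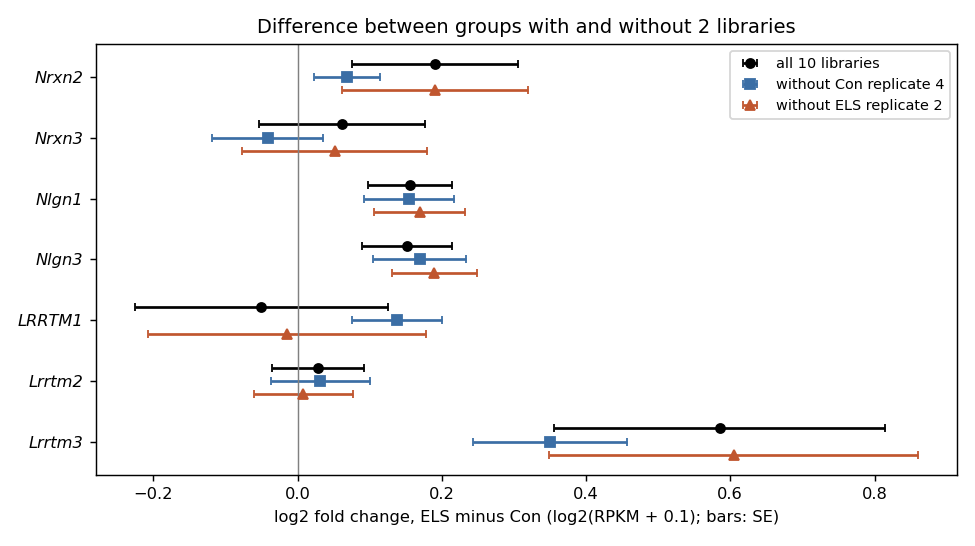
Log2 fold change of each gene, ELS minus control, on the log2(RPKM + 0.1) scale, with bars for the SE, over all 10 libraries (black), without control replicate 4 (blue) and without ELS replicate 2 (red). Nlgn1 and Nlgn3 lie near 0.15 or above in all 3 settings, while Nrxn3 and LRRTM1 change side without control replicate 4.

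The LRRTM genes differed in the size of the group difference, and LRRTM1 changed sign without control replicate 4. These postsynaptic proteins bind neurexins through their leucine-rich repeats or, in some members, through heparan sulfate chains on the neurexin, and take part in holding AMPA receptors at excitatory synapses. Lrrtm2 (ENSRNOG00000047085) was the most even of the 7 genes over the 10 libraries. It was at 12.1, 11.6, 11.5, 12.3 and 13.8 RPKM in control replicates 1 to 5. ELS replicates 1 to 5 gave 13.5, 13.2, 11.8, 11.7 and 12.3 RPKM. The groups lay on top of each other, and the log2 difference was 0.03 ± 0.06 (SE; adjusted p = 0.831 by limma), or 0.0076 without ELS replicate 2.

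Lrrtm3 (ENSRNOG00000026466), with the longest gene model of the 7 (7675 bases), had the widest difference. It was at 6.39, 4.86, 5.75, 2.56 and 6.81 RPKM in control replicates 1 to 5. In ELS replicates 1 to 5 it was at 6.47, 7.15, 8.19, 8.17 and 7.96 RPKM. In ELS, 4 of 5 libraries lay above every control, with ELS replicate 1 inside the control range. The means were 5.28 ± 1.69 and 7.59 ± 0.753 RPKM (SD, n = 5). The difference of the mean log2 values was 0.59 ± 0.23 (SE, with adjusted p = 0.198 by limma). Without control replicate 4, which held 438 reads of the gene, the log2 fold change was 0.35 ± 0.11 (adjusted p = 0.120), so the size of the difference depended on that library by more than 1.5 times while its direction did not.

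LRRTM1 (ENSRNOG00000006093) was at 11.9, 11.2, 11.4, 22.7 and 12.7 RPKM in control replicates 1 to 5. ELS replicates 1 to 5 gave 12.9, 11.7, 12.7, 13.3 and 14.2 RPKM. Control replicate 4 was 1.92 times the mean of the other controls, the reverse of Lrrtm3, which was 0.430 times that mean in the same library. With all libraries the log2 difference of LRRTM1 was -0.05 ± 0.18 (SE; adjusted p = 0.894 by limma), but leaving out that library gave 0.14 ± 0.06 (adjusted p = 0.234) and leaving out ELS replicate 2 gave -0.015. The ratio of LRRTM1 to Lrrtm3 was 8.86 in control replicate 4, 1.86 to 2.30 in the other controls and 1.55 to 1.99 in ELS. Of the 7 genes 3 lay at least 1.5-fold from the mean of the other controls in control replicate 4 (Nrxn2, LRRTM1 and Lrrtm3), as did 17.5% of tested genes. In each other control library 0 of the 7 did, beside 5.55% to 6.54% of tested genes.

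**Figure D3:**
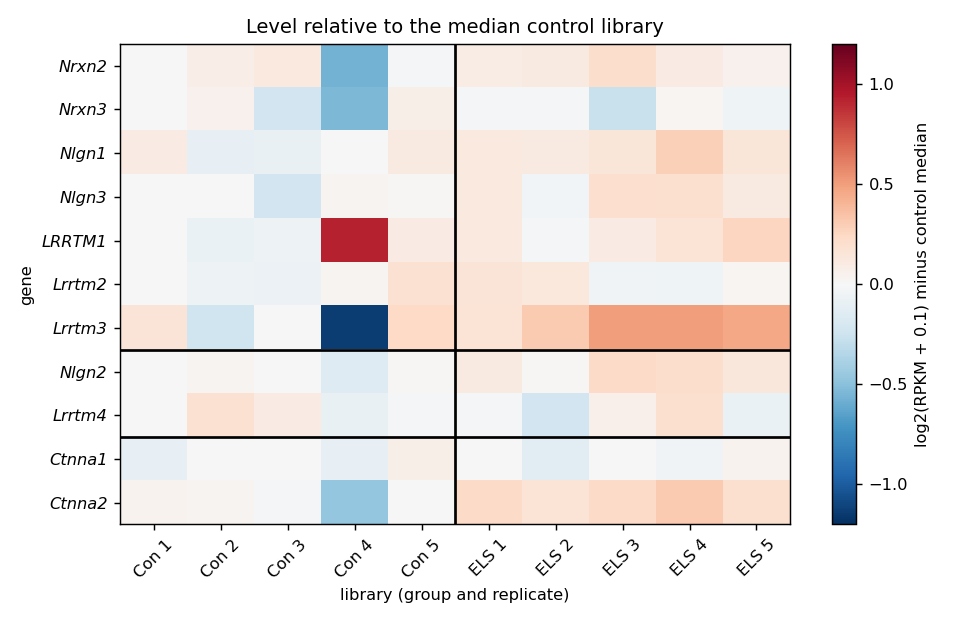
Level of each gene in each library as log2(RPKM + 0.1) minus the median control library (colour scale, red higher, blue lower), with control (Con) and ELS replicates in columns. The rows are the 7 genes, the related genes Nlgn2 and Lrrtm4, and the catenin genes Ctnna1 and Ctnna2; control replicate 4 stands out in Nrxn2, Nrxn3, LRRTM1, Lrrtm3 and Ctnna2.

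Each LRRTM gene of the group lies inside a catenin gene in the RefSeq annotation (build GRCr8), which was used for names and neighbours only: LRRTM1 in Ctnna2, Lrrtm2 in Ctnna1 and Lrrtm3 in Ctnna3. Alpha-catenins link cadherin adhesion complexes to actin. LRRTM1 and Lrrtm3 are on the strand opposite to their hosts, and the kit marks strand, but whether the counting used strand is not stated in the labels. Whether exons of host and inner gene overlap was not examined. Ctnna2 was at 41.0, 40.7, 39.1, 28.7 and 39.7 RPKM in control replicates 1 to 5 and at 46.4, 44.4, 46.6, 49.4 and 45.4 RPKM in ELS replicates 1 to 5. All 5 ELS libraries lay above every control, as in 3.08% of tested genes, and the difference was 0.31 ± 0.09 log2 units (SE; adjusted p = 0.138 by limma). In control replicate 4 Ctnna2 was at its lowest while LRRTM1 was at its highest. Without control replicate 4 and ELS replicate 2 together Ctnna2 passed the threshold (0.23 ± 0.04, adjusted p = 0.0148 by limma). In that setting 7.62% of tested genes passed. Ctnna1 had a log2 fold change of 0.0019 ± 0.05, and -0.016 ± 0.05 without control replicate 4, and Ctnna3, with 3 to 26 reads per library, was below the filter. The catenin genes were looked at after the values of the LRRTM genes had been seen.

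The 250 bases before the RefSeq start of Lrrtm3 are shown because of the 7 genes this one had the largest log2 difference between the groups. The window is chr20:24514054-24514303 on the plus strand of GRCr8, 5′ to 3′, with E-boxes in capitals:
Lrrtm3: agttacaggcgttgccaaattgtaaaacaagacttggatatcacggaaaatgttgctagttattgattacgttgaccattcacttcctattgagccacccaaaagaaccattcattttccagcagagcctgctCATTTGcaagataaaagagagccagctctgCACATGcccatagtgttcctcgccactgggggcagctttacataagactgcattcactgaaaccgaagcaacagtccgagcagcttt
E-boxes (CANNTG, a palindrome with either strand the same) began at -117 and -87 from the start, and 65.5% of the 33469 RefSeq windows of that length held at least 1. No match was found for the cAMP response element TGACGTCA, for its first bases TGACG, for the TATA box TATAAA or for the glucocorticoid receptor palindrome, on either strand. These were held by 1.59%, 18.2%, 12.9% and 0.373% of all windows. The window was 44.8% G and C, against a median of 51.2% over all windows.

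Genes of most similar pattern were taken, at most 2 for each gene, by the root mean square difference of centred log2 values over the 10 libraries, a description with no test. Nearest to Lrrtm3, whose own root mean square deviation was 0.47, were the ephrin receptor gene Ephb6 at 0.08 and Adgrl2 at 0.08, the latter encoding a latrophilin. Adgrl2 was at 5.92 RPKM in control replicate 4, 11.3 to 14.8 in the other controls and 15.2 to 17.2 in ELS. Nearest to LRRTM1 were Megf11 and RGD1306556, at 7.55 and 16.7 RPKM in control replicate 4 and at no more than 4.61 and 9.91 RPKM elsewhere. Nearest to Nrxn2 were the calcium channel subunit gene Cacnb3 and the adaptor gene Lin7b (0.05 and 0.06), and near to Nrxn3 was Luzp2 (0.06). Gabra4, a GABA-A receptor subunit gene, and Klhl12 were nearest to Nlgn1, and Coro2b and the proton pump subunit gene Atp6v0a1 to Nlgn3, all between 0.03 and 0.04. For the even Lrrtm2 they were Zfp68 and Fam8a1 (0.05 each).

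A related neuroligin gene and a related LRRTM gene were set beside the 7. Nlgn2, the neuroligin of inhibitory synapses, had means of 44.3 ± 2.19 (control) and 49.6 ± 2.89 RPKM (ELS; SD, n = 5), which differ by 0.16 ± 0.05 log2 units (SE; adjusted p = 0.149 by limma), close to those of Nlgn1 and Nlgn3. Without control replicate 4 and ELS replicate 2 together Nlgn2 passed the threshold (0.16 ± 0.04, adjusted p = 0.0337 by limma). In that setting 7.62% of tested genes passed. Nlgn2 did not pass without control replicate 4 alone (adjusted p = 0.147) or without ELS replicate 2 alone (adjusted p = 0.0652). Lrrtm4 had -0.05 ± 0.08 (adjusted p = 0.770), -0.08 ± 0.09 without control replicate 4 and 0.0036 ± 0.08 without ELS replicate 2.

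**Figure D4:**
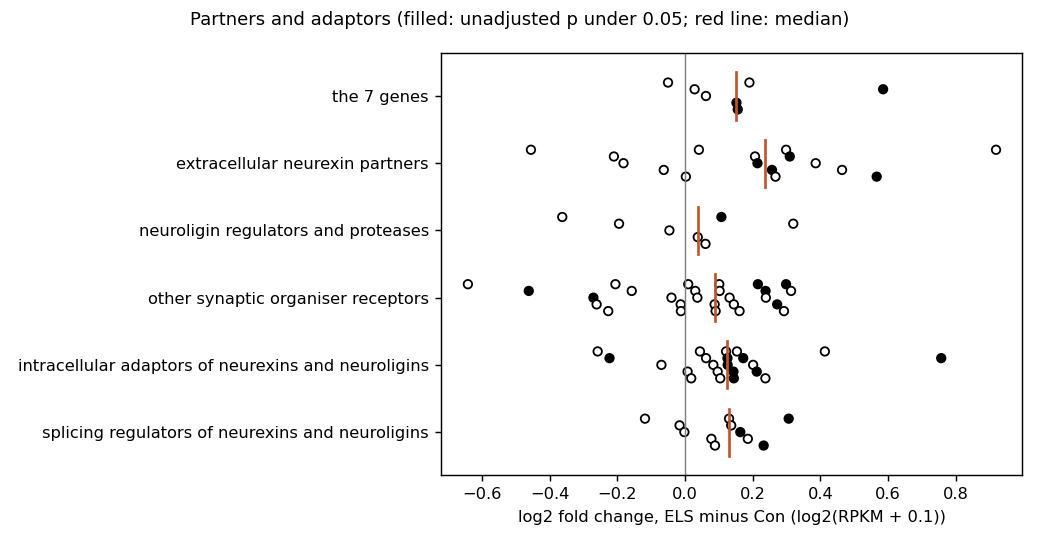
Log2 fold change, ELS minus control, on the log2(RPKM + 0.1) scale, of each tested gene (circles) in 5 lists of partners, regulators and adaptors and of the 7 genes; filled circles have an unadjusted p under 0.05, and the red line is the list's median. The medians of these 5 lists lie above 0: extracellular partners 0.24, splicing regulators 0.13, adaptors 0.12, other organiser receptors 0.09 and neuroligin regulators 0.04. The list of related family members is not drawn, and its median was below 0, at -0.05.

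Beyond the families, 88 genes of the pathway were listed in 6 groups that include related family members, and 86 of them were in the table, with 86 rows tested. At the adjusted threshold 0 passed by limma. At an unadjusted p under 0.05, 20 were higher (23.3%, beside 10.1% of all tested genes) and 4 lower (4.65%, beside 10.3%), and the median log2 fold change was 0.10. Without control replicate 4 the counts were 29 and 7, with a median of 0.07, beside 11.1% and 10.6% of tested genes. Without ELS replicate 2 they were 25 and 8, beside 11.4% and 11.2%. In that setting 7 of the 86 rows passed the adjusted threshold, 6 higher and 1 lower, beside 3.03% of tested genes. Adgrl1, Cadm3, Clstn3, Dlg4 and Rbfox3 were among those higher. Without control replicate 4 and ELS replicate 2 together, 15 rows passed as higher and 4 as lower, beside 7.62% of tested genes. With limma-voom and sample quality weights 9 passed as higher and 1 as lower, beside 6.37%. Adgrl1, Cadm3, Clstn3 and Lrfn5 were among those higher in both of these settings.

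Among 16 tested extracellular partners of neurexins, 4 were higher (25%, beside 10.1% of all tested genes) and 0 lower at an unadjusted p under 0.05. Adgrl1, which encodes a latrophilin, had means of 70.5 ± 5.42 RPKM (control) and 84.1 ± 4.25 RPKM (ELS), with no overlap of the groups. Its log2 difference was 0.26 ± 0.06 (SE; adjusted p = 0.133 by limma). Clstn3, a calsyntenin gene, was at 83.1 ± 8.01 and 102.8 ± 8.31 RPKM, with a log2 difference of 0.31 ± 0.08 (adjusted p = 0.133). Of 27 other receptors that organise synapses, 4 were higher (14.8%) and 2 lower (7.41%), near the 10.1% and 10.3% of all tested genes. The 2 of lowest p were Cadm3, a SynCAM adhesion gene, at 154.1 ± 10.3 and 181.4 ± 7.47 RPKM without overlap, and Lrfn5 at 15.8 ± 0.879 and 19.1 ± 1.84 RPKM. Their log2 fold changes were 0.24 ± 0.05 and 0.27 ± 0.07 (adjusted p = 0.133 for each).

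On the inside of the membrane, 22 rows for adaptors of neurexins and neuroligins held 7 higher (31.8%) and 1 lower (4.55%) at an unadjusted p under 0.05. Over all tested genes these shares were 10.1% and 10.3%. Sytl2, a synaptotagmin-like gene, was among those of lowest p in 1 of its 2 rows, with 35 to 90 reads per library and a log2 difference of 0.76 ± 0.22. Its other row, at 1.74 ± 0.607 RPKM in controls and 1.70 ± 0.387 RPKM in ELS, had 0.0074 ± 0.25. Of 11 splicing regulators 3 were higher (27.3%, beside 10.1% of all tested genes) and 0 lower. Rbfox3 was at 62.5 ± 1.81 and 70.1 ± 4.06 RPKM and Srrm4 at 6.73 ± 1.05 and 8.29 ± 0.564. Of 7 neuroligin regulators and proteases 1 was higher (14.3%, near the 10.1% of all tested genes). It was Bace1, a protease gene, at 30.9 ± 1.77 and 33.3 ± 1.01 RPKM. The other of the pair of lowest p, the protease gene Adam17, was at 4.30 ± 0.494 and 3.74 ± 0.427 RPKM. The adjusted p of these rows ran from 0.133 to 0.308 (limma), apart from the other row of Sytl2, which had 0.989.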

How the data were processed

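The authors deposited 1 table of RPKM-type values for 10 libraries. A stranded mRNA kit is named in the labels' protocols; STAR, featureCounts and the build rn6 are named in the submitters' processing notes. For versions, strand setting, annotation release and gene filter: not given in the sources used here. RPKM and FPKM could not be told apart. Columns were matched to sample titles, and 0 columns belonged to other samples. Whole reads, gene lengths and totals were recovered from the values of 16015 genes (tolerance 0.002 reads), with 26 at 0 throughout. Totals were at least 18838898 reads, and the 7 genes held at least 438 reads in each library; counting error is larger for genes of few reads.

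Genes with at least 0.5 RPKM in 5 libraries (14642 of 16041) were tested with limma 3.58.1 (R 4.3.3) on log2(RPKM + 0.1), two-sided, with moderation set to trend and robust, and p-values adjusted by Benjamini-Hochberg; the fit was tested on simulated reads. The planned test fitted the unit. Alternatives were pseudocounts, filters, scaling, moderation, limma-voom with and without sample quality weights, the replicate number as a block, and left-out libraries. Genes named are the 7, the 2 of lowest p per pathway list, the 2 of most similar pattern per gene, and the 2 highest cell markers per list, of which only those a result touches are printed; any other gene was picked with its values in view. The genes and lists were chosen with earlier results of these data known. Of the 88 pathway genes, Cask and Slitrk4 were not analysed here, and C1ql2 was below the filter. Some genes that the rules name are not reported here.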

Additional observations from a re-analysis of the deposited data

Results flagged for a closer look

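In 5 of the 14 groups of 5 libraries (7 genes, each in controls and ELS), 1 library lay far from the others by Dixon's ratio of its gap to the range; by chance this happens in about 1 in 20 groups, and groups of one library set are not independent. Control replicate 4 stood apart in Nrxn2, at 29.2 RPKM against 42.5 to 47.0 in the other controls, and for LRRTM1, at 22.7 against 11.2 to 12.7. Control replicate 3 stood apart in Nlgn3, at 27.3 RPKM against 31.8 to 32.7. ELS replicate 3 stood apart in Nrxn3, at 15.9 RPKM against 18.6 to 19.5, and ELS replicate 4 in Nlgn1, at 16.6 against 14.6 to 15.1.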

How the results depend on the processing

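None of the 7 genes passed an adjusted p of 0.05 in any of 21 alternatives (lowest 0.0624, Nlgn3 without ELS replicate 2 and control replicate 4), and 140 of 147 gene values kept their sign. Nrxn3 turned to -0.0417 without control replicate 4, -0.0366 with limma-voom and sample quality weights, and -0.0520 without both libraries. LRRTM1 turned to 0.138, 0.130 and 0.173 in these settings, and Lrrtm2 to -4.38e-05 without ELS replicate 1. Over single libraries left out, Nrxn3 ran from -0.0417 to 0.112, LRRTM1 from -0.115 to 0.138 and Lrrtm2 from -4.38e-05 to 0.0710. The cause was not tested. Leaving out single libraries gave 0 to 3 genes higher at an unadjusted p under 0.05. Over all genes, single libraries left out gave 0 to 444 at the adjusted threshold, the highest without ELS replicate 2, quality weights (0.170 for control replicate 4) gave 933, and leaving out both libraries gave 1116. Replicate numbers did not pair the libraries (correlations of deviations -0.0817 to 0.0658), and with the replicate block 0 of the 7 genes passed, with Nlgn1 at 0.16 (adjusted p = 0.272). The filter and 5 libraries per group limit what can be called, and limited power is no evidence of equal levels.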
